A study of Mus musculus with 30 samples.

Results

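Huntingtin (Htt) and 8 other genes of mouse chromosome 5 were followed in the hearts of 2 mouse models of Huntington's disease (HD). The 9 genes were Htt, Sorcs2, Supt7l, Atraid, Gm15513, Poln, Letm1, Zfyve28 and Nat8l, out of 37620 genes in the tables, and all 9 passed the filter on low counts in every comparison. They were chosen because of their differences between HdhQ150 and wild type (WT) hearts in these same libraries, and because they lie around the locus that was modified in that line. The HdhQ150 values below are therefore a description and carry no test, whereas the comparisons of R6/2 with WT hearts and of WT hearts of different ages are tested.

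The HdhQ150 line has a long CAG repeat placed in its own Htt gene. The HdhQ150 mice studied were homozygous, so both copies of Htt were the modified one, and their parents were heterozygotes of congenic lines, one CBA/Ca and one C57BL/6J, so that both WT and HdhQ150 mice were F1 hybrids of these strains. R6/2 mice are hemizygous for a transgene with exon 1 of mutated human HTT, carry both mouse Htt copies unmodified, and were bred from R6/2 males and (CBA x C57BL/6) F1 females. RNA of whole hearts was sequenced from WT and R6/2 mice at 4 weeks (4 and 4 hearts) and at 15 weeks (4 and 4), and from WT and HdhQ150 mice at 8 months (4 and 3) and at 22 months (3 and 4), 30 libraries in all. The R6/2 line was sampled only at the 2 young ages and the HdhQ150 line only at the 2 old ages, so line and age cannot be told apart across them.

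Huntingtin is a large scaffold protein present in nearly all tissues that takes part in vesicle transport and in the control of transcription. In HD, a run of CAG codons in exon 1 of the gene is expanded, which lengthens a glutamine tract close to the start of the protein. In a knock-in line the modified gene stays on its own chromosome, and when such a line is backcrossed, the chromosome on both sides of the gene is inherited with it, along with any strain differences found there. Which strain this stretch came from in the HdhQ150 mice is not given in the sources used here, so the part of the repeat and the part of the chromosome around it in any difference listed below cannot be told apart.

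On build GRCm38, with gene models of GENCODE vM21, Htt spans chr5:34761740-34912534 on the plus strand. Sorcs2, at chr5:36017180-36398139 on the minus strand, starts 1.255 Mb beyond the start of Htt. The other 7 genes lie on the other side of Htt. Gm15513 (chr5:34211810-34213802, minus strand) lies inside an intron of Zfyve28 (chr5:34194893-34288449, minus strand), at -0.550 Mb and -0.567 Mb from Htt, counted from start to start with a minus sign for genes before Htt. Poln (chr5:34007179-34169448, minus strand), Nat8l (chr5:33995984-34005916, plus strand) and Letm1 (chr5:33739673-33782817, minus strand) follow at -0.755, -0.766 and -1.022 Mb. Supt7l (chr5:31514564-31527807, minus strand) and Atraid (chr5:31048312-31054623, plus strand) are the most distant, at -3.247 and -3.713 Mb. Each gene spans exons and introns over the stretch given, and Gm15513 is a non-coding transcript.

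The modified site is shown by the first 180 coding bases of mouse Htt in the unmodified reference, chr5:34761907-34762086, plus strand, exon 1 of the gene. The run of CAG codons, the place where the repeat of the knock-in line is expanded, is in capitals.
Htt coding start: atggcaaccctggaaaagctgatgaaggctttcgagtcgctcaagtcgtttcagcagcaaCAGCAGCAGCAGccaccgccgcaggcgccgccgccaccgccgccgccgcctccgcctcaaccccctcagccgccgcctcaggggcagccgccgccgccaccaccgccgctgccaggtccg
The reference holds 4 uninterrupted CAG codons from codon 21 on, at chr5:34761967-34761978, within a run of 7 glutamine codons, followed by codons for proline. The expanded sequence of the HdhQ150 allele is not shown, because the values here were made against a reference genome.

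The 250 bases before the start of Htt transcription, chr5:34761490-34761739 on the plus strand in RefSeq's annotation of GRCm38.p6, are shown because the level of Htt RNA is the first value compared below. GC boxes (GGGCGG, searched on both strands) are in capitals.
Htt promoter: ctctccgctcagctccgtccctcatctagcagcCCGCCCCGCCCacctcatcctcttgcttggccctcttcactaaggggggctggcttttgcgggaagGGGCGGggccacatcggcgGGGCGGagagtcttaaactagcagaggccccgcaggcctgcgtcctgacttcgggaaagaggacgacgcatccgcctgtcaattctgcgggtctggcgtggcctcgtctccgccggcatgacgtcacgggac
The window holds 4 GC boxes, of which 2 read as written and 2 on the reverse strand, and the latter overlap each other. RefSeq windows were found for 6 of the 9 genes, and those of Supt7l and Atraid lie inside the longer GENCODE models of these genes. Poln and Letm1 had 3 GC boxes each, Atraid and Zfyve28 had 2 each, and Supt7l had none, and 32.7% of 32851 windows of the same length held at least 1.

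Libraries had between 33718139 and 62127770 counted reads. Cardiomyocyte markers were the most abundant of the marker lists in every library, with a summed level of 42016 to 85027 CPM (read counts scaled to the size of the library). Transcripts of thymocytes, summed over their marker list, stood above 50 CPM in 5 libraries (2 of 4 WT at 4 weeks, 2 of 4 WT at 15 weeks, 1 of 4 HdhQ150 at 22 months), and those of airway and alveolar cells in 9 (1 of 4 WT and 2 of 4 R6/2 at 4 weeks, 3 of 4 R6/2 at 15 weeks, 1 of 3 HdhQ150 at 8 months and 2 of 4 at 22 months). The part of these transcripts in the results was not tested beyond the values given below. Y-linked transcripts went against the sex in the column heading in 8 libraries (mice 1, 2, 5 and 6 at 15 weeks and mice 27, 28, 31 and 32 at 22 months). The sex or the mouse number may be wrong for these libraries, whose genotype is known here from the same headings. Some results that rest on them are given with and without them. For HdhQ150 against WT hearts at 22 months these are Htt, Sorcs2 and Poln, and other values there include all libraries of that age. Y-linked transcripts were present in 2 of 3 WT hearts and 0 of 4 HdhQ150 hearts at 22 months, so sex and genotype are partly confounded there.

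At 8 months the Htt level in CPM was lower in all 3 HdhQ150 hearts than in any WT heart. WT hearts had 28.3, 32.2, 22.3 and 32.8 CPM, and HdhQ150 hearts 15.7, 18.5 and 15.0 CPM. In CPM the groups did not overlap, and the fitted log2 fold change was -0.80 (SE 0.14), with means of 28.9 ± 4.82 CPM (SD, n = 4) and 16.4 ± 1.81 CPM (SD, n = 3). By FPKM (fragments per kilobase of transcript, scaled to the library's size) they overlapped. The lowest WT heart had 1.54 FPKM and the highest HdhQ150 heart 1.62 FPKM. At 22 months WT hearts had 18.03, 19.0 and 21.8 CPM, and HdhQ150 hearts 11.3, 18.7, 17.0 and 12.4 CPM. Here 1 HdhQ150 heart lay within the WT range, and the log2 fold change was -0.40 (SE 0.19). Without the 4 libraries of that age whose headings went against their Y-linked transcripts, which left 1 WT heart and 2 HdhQ150 hearts, it was -0.28. Summed cardiomyocyte markers also did not overlap at 8 months (66183 to 69167 CPM in WT and 59012 to 65019 CPM in HdhQ150 hearts), and their part in the differences was not tested. In RNA of a whole heart, fewer cells that express a gene and less RNA per cell cannot be told apart.

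The split of the WT hearts by sex could be followed for Htt. At 8 months the WT hearts without Y-linked transcripts had 32.2 and 32.8 CPM and those with them 22.3 and 28.3 CPM. Both values with Y-linked transcripts in HdhQ150 hearts (15.0 and 18.5 CPM) lay below the latter pair, and the HdhQ150 heart without them (15.7 CPM) lay below the former. With the presence of Y-linked transcripts as a covariate, the log2 fold change of Htt was -0.76 at 8 months and -0.55 at 22 months. At 22 months no HdhQ150 heart had these transcripts, and mouse 28 was the only WT heart without them. The covariate values of that age, for Htt and the genes below, therefore rest on this WT heart. Its heading also went against its Y-linked transcripts.

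Sorcs2, a sorting receptor of the VPS10 family that binds the precursors of neurotrophins, was the 1 gene of the 9 whose groups did not overlap at both ages. At 8 months WT hearts had 5.98, 9.22, 6.18 and 10.2 CPM, and HdhQ150 hearts 13.2, 15.4 and 14.9 CPM. At 22 months WT hearts had 5.84, 5.82 and 9.74 CPM, and HdhQ150 hearts 16.2, 16.6, 12.0 and 17.9 CPM. All 7 HdhQ150 hearts lay above all 7 WT hearts of the line. The log2 fold change was 0.89 (SE 0.19) at 8 months and 1.14 (SE 0.23) at 22 months.

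Among the WT hearts of the HdhQ150 line, those without Y-linked transcripts had the highest Sorcs2 values at each age (9.22 and 10.2 CPM, then 9.74 CPM). Those with Y-linked transcripts had 5.98 and 6.18 CPM at 8 months and 5.84 and 5.82 CPM at 22 months. Within each kind the HdhQ150 hearts were higher at 8 months, with 14.9 and 15.4 CPM in those with Y-linked transcripts and 13.2 CPM in the 1 without. At 22 months all 4 HdhQ150 hearts lacked these transcripts, and set against the 1 WT heart that also lacked them the log2 fold change was 0.69. The covariate gave 0.98 at 8 months and 0.70 at 22 months, so the 22-month value moved by more than 1.5 times. Without the 4 libraries whose headings went against their Y-linked transcripts, it was 1.47 at 22 months.

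**Figure D1:**
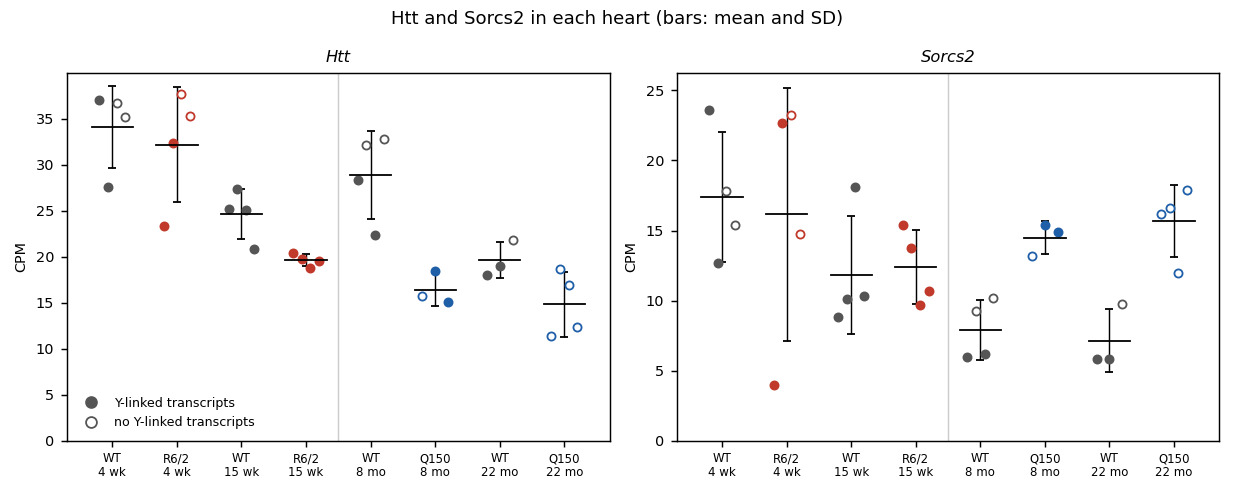
CPM of Htt (left) and Sorcs2 (right) on the vertical axis, 1 point a heart, in the 8 groups on the horizontal axis (WT grey, R6/2 red, HdhQ150, written Q150, blue), with filled points for hearts with Y-linked transcripts and open points for those without. Horizontal lines are means and bars are SD. All 7 HdhQ150 hearts lie above all 7 WT hearts of their line for Sorcs2, and the R6/2 and WT hearts overlap for Sorcs2 at both ages.

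Supt7l and Atraid, the pair most distant from Htt, were lower in every HdhQ150 heart at 8 months. Supt7l encodes a subunit of SAGA, a complex that acetylates histones. Its level was 10.4, 10.1, 8.43 and 10.8 CPM in WT hearts and 6.35, 5.95 and 5.72 CPM in HdhQ150 hearts, a log2 fold change of -0.70 (SE 0.10). Atraid, named for its induction by all-trans retinoic acid, had 36.9, 34.3, 34.9 and 34.8 CPM in WT hearts and 25.7, 25.9 and 24.5 CPM in HdhQ150 hearts, a log2 fold change of -0.45 (SE 0.05). At 22 months the groups overlapped for both genes. Supt7l then had 11.5, 13.4 and 11.5 CPM in WT hearts and 11.3, 11.5, 12.2 and 9.51 CPM in HdhQ150 hearts (log2 fold change -0.12, SE 0.13, and -0.04 with the Y-linked covariate). Atraid had 45.1, 45.4 and 38.7 CPM against 34.5, 43.9, 30.1 and 34.0 CPM (-0.27, SE 0.14), which was -0.11 with the Y-linked covariate and -0.14 without the libraries with airway transcripts. For both genes the covariate value rests on the WT heart of mouse 28. Supt7l shares 813 bases with Slc4a1ap and Atraid 613 bases with Slc5a6, each on the opposite strand, and whether counting used the strand is not given in the sources used here.

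Gm15513 had few reads. At 8 months WT hearts had 23 to 30 reads (0.841, 0.613, 0.758 and 0.613 CPM) and HdhQ150 hearts 6 to 11 reads (0.153, 0.337 and 0.165 CPM). The groups did not overlap, and the log2 fold change was -1.70 (SE 0.33). At 22 months the values of 0.811, 0.665 and 1.09 CPM in WT hearts and 0.525, 1.03, 0.853 and 0.685 CPM in HdhQ150 hearts overlapped (-0.14, SE 0.31). That value was -0.49 with the Y-linked covariate, which rests on the WT heart of mouse 28, and ran from -0.30 to 0.06 with 1 library left out. Gm15513 lies over its whole length of 1993 bases within Zfyve28 on the same strand, so its reads cannot be told apart from unspliced RNA of that gene.

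In CPM, Poln, Letm1 and Zfyve28 were lower in every HdhQ150 heart at 22 months but not at 8 months. By FPKM this held for Poln, but at 22 months the groups overlapped for Letm1 and Zfyve28. The lowest WT and highest HdhQ150 hearts then had 16.9 and 17.3 FPKM of Letm1, and 0.516 and 0.577 FPKM of Zfyve28. Poln encodes DNA polymerase nu, a polymerase of family A. Its level at 22 months was 3.13, 3.27 and 2.44 CPM in WT hearts and 1.16, 1.58, 1.48 and 1.61 CPM in HdhQ150 hearts (log2 fold change -1.01, SE 0.21, and -0.73 with the Y-linked covariate). The covariate value rests on the WT heart of mouse 28. Without the libraries whose headings went against their Y-linked transcripts the log2 fold change was -1.21, with mouse 26 as the only WT heart left. At 8 months WT hearts had 3.77, 2.43, 4.02 and 2.54 CPM and HdhQ150 hearts 1.81, 2.15 and 2.57 CPM (-0.52, SE 0.23). The 8-month overlap was between hearts of different sex. With Y-linked transcripts, WT hearts had 3.77 and 4.02 CPM and HdhQ150 hearts 2.15 and 2.57 CPM. Without them, WT hearts had 2.43 and 2.54 CPM and the HdhQ150 heart 1.81 CPM. Poln shares 15569 bases with Haus3 on the same strand, and how reads common to both were counted is not given in the sources used here.

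Letm1, a protein of the inner mitochondrial membrane that takes part in cation exchange, had 104, 103 and 96.9 CPM in WT hearts at 22 months and 77.3, 75.7, 63.3 and 87.4 CPM in HdhQ150 hearts (log2 fold change -0.41, SE 0.12). The lowest of these, 63.3 CPM, was the heart of mouse 31, whose library also carried thymocyte transcripts (139 CPM) and airway transcripts (786 CPM). At 8 months WT hearts had 105, 101, 99.5 and 104 CPM and HdhQ150 hearts 94.4, 92.8 and 114 CPM, on both sides of the WT range (-0.01, SE 0.08). Zfyve28, a protein with a lipid-binding FYVE domain that takes part in the turnover of the epidermal growth factor receptor, had 1.71, 1.75 and 2.04 CPM in WT hearts at 22 months and 1.3, 1.33, 1.26 and 1.2 CPM in HdhQ150 hearts (-0.52, SE 0.18). At 8 months its values were 2.18, 2.08, 1.98 and 1.66 CPM against 1.78, 1.75 and 1.15 CPM (-0.33, SE 0.20), and the groups overlapped.

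Nat8l makes N-acetylaspartate from aspartate and acetyl-CoA, and its groups overlapped at both HdhQ150 ages. At 8 months WT hearts had 3.93, 4.85, 4.52 and 5.91 CPM, and HdhQ150 hearts 3.62, 7.63 and 18.7 CPM. The fitted log2 fold change of 1.09 (SE 0.46) rested on the heart of mouse 24, without which it was 0.22. That library also carried airway transcripts (1086 CPM). At 22 months WT hearts had 6.35, 7.06 and 6.66 CPM and HdhQ150 hearts 5.16, 3.91, 6.53 and 9.16 CPM (-0.11, SE 0.28). Without mice 31 and 32, the libraries with airway transcripts, it was -0.56, and with 1 library left out it ran from -0.36 to 0.06.

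Summed over a list, transcripts of fat were highest at 8 months in the HdhQ150 hearts with the highest Nat8l values. The list (Ucp1, the uncoupling protein of brown fat, with Cidea, Elovl3, Adipoq, Plin1 and Lep) was chosen after the Nat8l values were seen. Ucp1 had 324 CPM in mouse 24 and 85.1 CPM in mouse 23, the HdhQ150 hearts with the highest Nat8l values at 8 months, against 1.19 to 9.71 CPM in the 5 other hearts of that age. The summed list was 522 CPM in mouse 24 and 164 CPM in mouse 23, and 34.0 to 49.5 CPM in the others. Over all 30 libraries, Pearson's r between the log2 CPM of Nat8l and of Ucp1 was 0.62, and for the other 8 genes it lay between -0.41 (Atraid) and 0.09 (Sorcs2). No coefficient was computed for the rest of the fat list or its sum. These points share library composition and group, and the part of fat transcripts in the Nat8l values was not tested.

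Counted together, 5 of the 9 genes had groups that did not overlap with a fold of at least 1.3 at 8 months (1 higher, 4 lower), where 2.06% of 15173 genes did, 1.09% higher and 0.969% lower. At 22 months 4 of 9 did (1 higher, 3 lower), where 11.1% of 15569 genes did, 5.76% higher and 5.36% lower. Because the genes were picked from this contrast, nothing is read from these shares. Just inside both limits was Letm1 at 22 months (fold 1.33). Just outside were Htt at 22 months (fold 1.32, groups overlapping) and Zfyve28 at 8 months (fold 1.25, groups overlapping). The median log2 fold change of the 9 genes was -0.45 at 8 months and -0.27 at 22 months, and that of all genes 0.01 and 0.05.

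**Figure D2:**
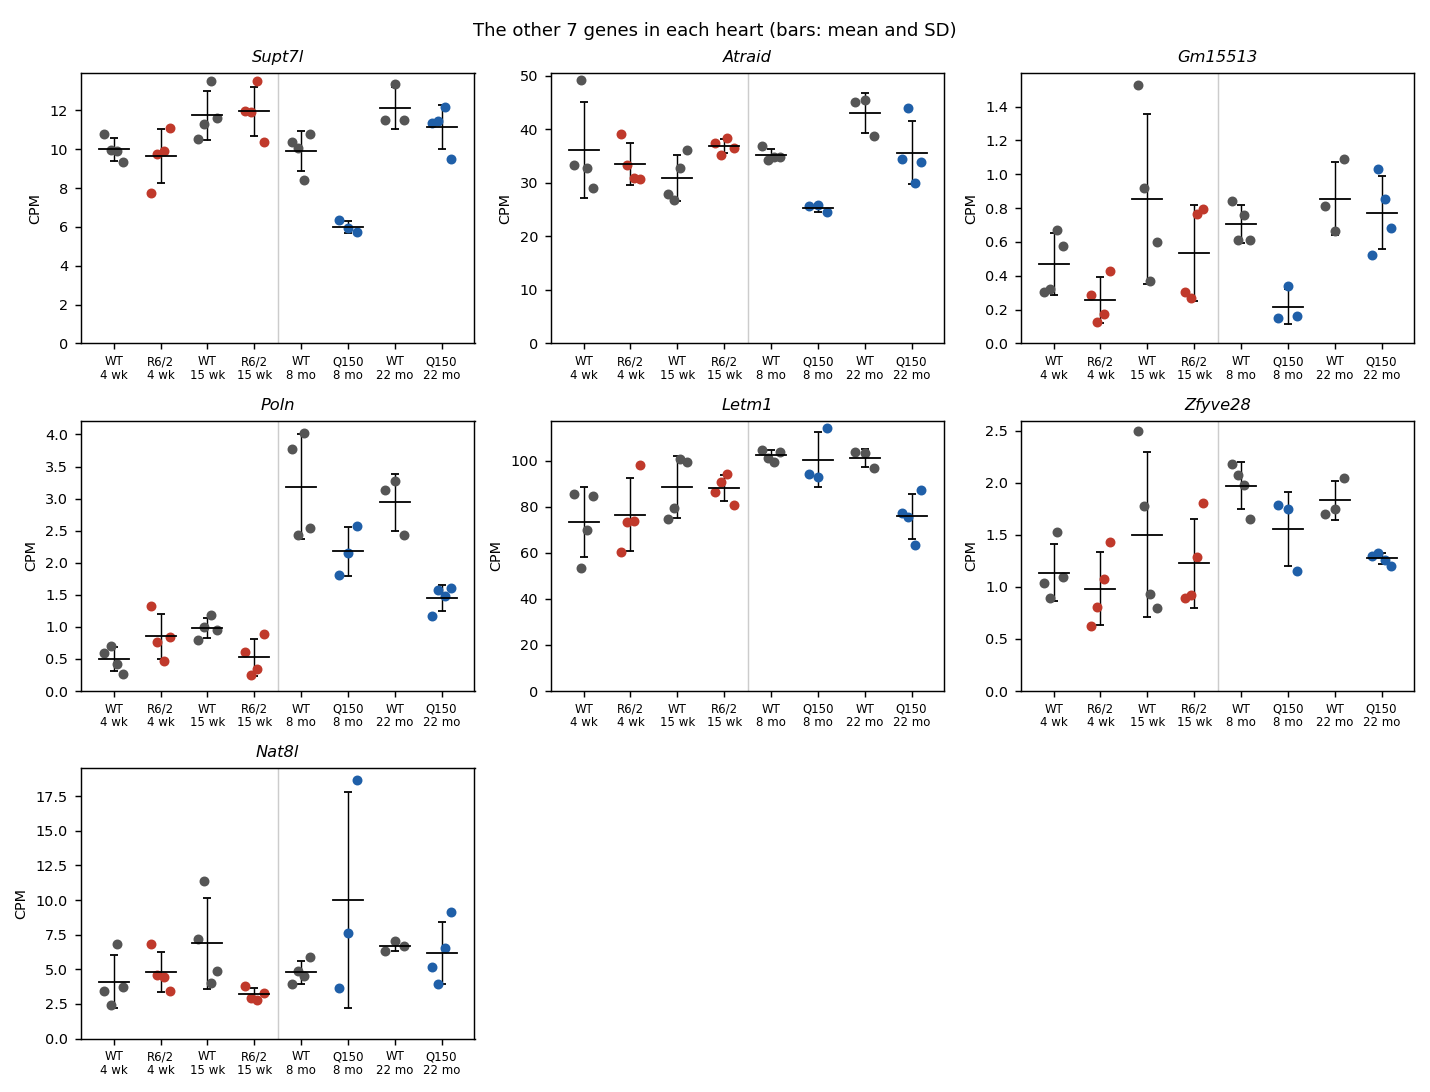
CPM of the other 7 genes on the vertical axis, 1 point a heart, in the 8 groups on the horizontal axis (WT grey, R6/2 red, HdhQ150, written Q150, blue), with horizontal lines for means and bars for SD. Supt7l, Atraid and Gm15513 are apart between WT and HdhQ150 at 8 months, and Poln, Letm1 and Zfyve28 at 22 months, and the single high Nat8l value of 18.7 CPM is mouse 24.

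R6/2 mice carry the mutant fragment elsewhere in the genome and have 2 unmodified Htt copies, so the same 9 genes were tested in them. At 4 weeks none of the 9 passed the test, which was an adjusted p under 0.1 with a fold of at least 1.3 (edgeR, quasi-likelihood, Benjamini-Hochberg over all genes). None had an unadjusted p under 0.05, and DESeq2 called none of the 9. Of all 15478 genes 0% were called by edgeR and 43 genes by DESeq2, and 513 had an unadjusted p under 0.05. Htt had 37.02, 27.5, 36.7 and 35.2 CPM in WT and 23.4, 32.4, 37.7 and 35.2 CPM in R6/2 hearts, and the fitted difference was -0.09 on the log2 scale (95% interval -0.40 to 0.22). Sorcs2 had 23.6, 12.7, 17.9 and 15.4 CPM in WT and 3.96, 22.7, 23.3 and 14.7 CPM in R6/2 hearts, and its interval, from -1.01 to 0.79, was wide, with mouse 9 at 3.96 CPM the farthest from the rest.

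At 15 weeks 1 of the 9 genes, Nat8l, was called lower in R6/2 hearts, where 14.3% of 15463 genes were called, 7.82% higher and 6.44% lower. Airway transcripts were present in 3 of the 4 R6/2 libraries (373 to 4944 CPM) and in no WT library of that age (up to 29.4 CPM). Nat8l had 7.22, 11.3, 4.02 and 4.91 CPM in WT and 3.83, 2.92, 2.79 and 3.25 CPM in R6/2 hearts (log2 fold change -1.11, SE 0.33, adjusted p = 0.0736, edgeR). In CPM all 4 R6/2 hearts lay below all 4 WT hearts. By FPKM the groups overlapped, at 0.569 FPKM in the lowest WT and 0.592 FPKM in the highest R6/2 heart. The highest WT values, 7.22 and 11.3 CPM, belonged to mice 1 and 2, the WT libraries of that age with thymocyte transcripts (761 and 636 CPM, against 8.21 and 1.25 CPM in mice 3 and 4). They also had more fat transcripts (139 and 101 CPM over the fat list) than the other hearts of that age (31.96 to 79.8 CPM). Without mice 1 and 2 the log2 fold change was -0.47 and the call was lost (adjusted p = 0.190). The call was also lost without mouse 1, 2, 5, 6, 7 or 8 alone, at log2 fold changes from -1.21 to -0.75 and adjusted p of 0.137 to 0.169. Without mice 1, 2, 5 and 6, whose headings went against their Y-linked transcripts, it was -0.55 (adjusted p = 0.270).

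Htt itself was lower in CPM in all 4 R6/2 hearts at 15 weeks, by less than the fold limit. WT hearts had 25.2, 27.4, 25.1 and 20.8 CPM, and R6/2 hearts 20.4, 19.8, 18.8 and 19.5 CPM. By FPKM the groups overlapped, at 1.58 FPKM in the lowest WT and 1.77 FPKM in the highest R6/2 heart. In CPM they did not overlap, the log2 fold change was -0.33 (SE 0.10, adjusted p = 0.0780, edgeR), and the fold was 1.26 against the limit of 1.3. Without mice 1 and 2 it was -0.22 (adjusted p = 0.214), and with 1 library left out the adjusted p was 0.144 to 0.178 without mouse 1, 2, 5, 6, 7 or 8. It was 0.0984 without mouse 3 and 0.0258 without mouse 4, and in the last fit (-0.39) both limits were passed. How reads from the human exon 1 transgene were treated in counting mouse Htt is not given in the sources used here.

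Sorcs2, which was apart in the HdhQ150 line, was not called in R6/2 hearts at 15 weeks. WT hearts had 8.81, 10.1, 18.1 and 10.3 CPM, and R6/2 hearts 15.4, 13.8, 9.67 and 10.7 CPM. The log2 fold change was 0.07 with a 95% interval from -0.40 to 0.55 (adjusted p = 0.870, edgeR). It was 0.34 without mouse 3 and -0.46 without mice 1, 2, 5 and 6. The difference between the lines was not tested. Supt7l (0.03, interval -0.19 to 0.25), Letm1 (-0.01, interval -0.21 to 0.20) and Atraid (0.26, interval 0.07 to 0.45, adjusted p = 0.125) were not called either. For Gm15513, Poln and Zfyve28 the intervals were wider than 1 on the log2 scale, at values of -0.69, -0.88 and -0.30.

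**Figure D3:**
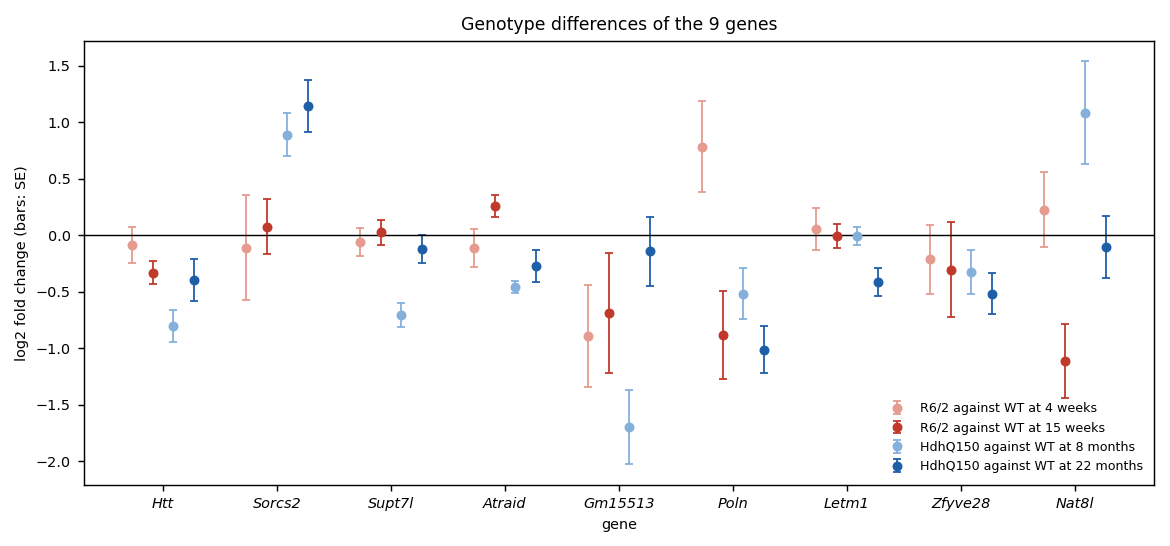
Log2 fold change on the vertical axis for each of the 9 genes on the horizontal axis, in R6/2 against WT hearts at 4 weeks (light red) and 15 weeks (red) and HdhQ150 against WT hearts at 8 months (light blue) and 22 months (blue), with bars for the SE. Sorcs2 stands at 0.89 and 1.14 in the HdhQ150 line and at -0.11 and 0.07 in the R6/2 line.

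The R6/2 difference did not pass the test of a change between 4 and 15 weeks for any of the 9 genes (0 of 9 by edgeR and by DESeq2, where edgeR called 0.526% of 16339 genes). The genes with an unadjusted p under 0.05 were Poln (-1.68, SE 0.58, adjusted p = 0.215) and Nat8l (-1.34, SE 0.48, adjusted p = 0.235). Poln had 0.588, 0.696, 0.418 and 0.269 CPM in WT and 1.32, 0.769, 0.475 and 0.839 CPM in R6/2 hearts at 4 weeks. At 15 weeks it had 0.794, 0.999, 1.19 and 0.947 CPM in WT and 0.609, 0.251, 0.345 and 0.891 CPM in R6/2 hearts.

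With age in WT hearts, Htt fell in both lines. From 4 to 15 weeks it was the 1 of the 9 genes called, where 7.01% of 15531 genes were (2.30% higher, 4.71% lower), with a log2 fold change of -0.48 (SE 0.13, adjusted p = 0.0835, edgeR). The 4 hearts at 15 weeks (20.8 to 27.4 CPM) lay below the 4 at 4 weeks (27.5 to 37.02 CPM), and the difference between the nearest hearts was 27.4 against 27.5 CPM. By FPKM they overlapped, with up to 2.75 FPKM at 15 weeks and from 2.34 FPKM at 4 weeks. Leaving out mouse 1, 2, 3, 4, 10, 12 or 13 lost this call, at log2 fold changes from -0.53 to -0.41 and adjusted p from 0.116 to 0.204. The Y-linked covariate lost it too (-0.41, adjusted p = 0.246), as did leaving out mice 1 and 2 for their headings (-0.58, adjusted p = 0.146). Y-linked transcripts were present in all 4 WT hearts at 15 weeks and in 2 of 4 at 4 weeks.

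From 8 to 22 months 2 of the 9 genes were called, where 23.4% of 15195 genes were (8.61% higher, 14.8% lower). Htt fell by 0.56 on the log2 scale (SE 0.13, adjusted p = 0.0109, edgeR), from 22.3 to 32.8 CPM at 8 months to 18.03 to 21.8 CPM at 22 months, with no overlap in CPM. Nat8l rose by 0.47 (SE 0.14, adjusted p = 0.0286), with all 3 hearts at 22 months (6.35 to 7.06 CPM) above all 4 at 8 months (3.93 to 5.91 CPM). By FPKM both overlapped. Htt had up to 1.59 FPKM at 22 months and from 1.54 FPKM at 8 months. Nat8l had from 0.825 FPKM at 22 months and up to 0.844 FPKM at 8 months. Fat transcripts were also higher at 22 months (67.4 to 136 CPM over the list, against 34.0 to 49.5 CPM), and their part in the Nat8l difference was not tested. Both calls held without each library in turn, with adjusted p up to 0.0508 for Htt and 0.0814 for Nat8l. Without mice 27 and 28, which left 1 heart at 22 months that was assumed to vary like the others, Htt was called (-0.69, adjusted p = 0.0430) and Nat8l was not (0.39, adjusted p = 0.208). Summed cardiomyocyte markers were higher at 22 months (78760 to 85027 CPM) than at 8 months (66183 to 69167 CPM), and their part was not tested. The Nat8l call was lost with all 30 libraries in 1 fit (0.50, adjusted p = 0.492), and the Htt call was lost when the lane was added to that fit (-0.49, adjusted p = 0.154). Supt7l and Atraid were each higher by 0.29 (adjusted p = 0.0587 and 0.0162) and fell short of the fold limit at a fold of 1.22 and 1.23. The same 7 WT hearts are the controls of the HdhQ150 comparisons from which the 9 genes were chosen. The adjusted p values given here for these genes are therefore not independent of that choice.

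Per length, Atraid was the most abundant of the 9 genes, with a mean level of 36.9 FPKM (fragments per kilobase of transcript, scaled to the library's size) over the 30 libraries, followed by Letm1 (16.9 FPKM), Supt7l (4.10 FPKM), Sorcs2 (2.36 FPKM) and Htt (2.05 FPKM). Nat8l (0.876 FPKM), Poln (0.506 FPKM), Zfyve28 (0.474 FPKM) and Gm15513 (0.379 FPKM) were the lowest. The order of neighbours was not fixed, since Sorcs2 and Htt crossed between groups. Htt stood at 3.18 ± 0.622 FPKM (SD, n = 4) and Sorcs2 at 3.36 ± 0.904 FPKM in WT hearts at 4 weeks, a gap smaller than their SD. In WT hearts at 8 months Htt was the higher, at 2.22 ± 0.551 FPKM (SD, n = 4) against 1.298 ± 0.390 FPKM for Sorcs2. In HdhQ150 hearts at 22 months Sorcs2 was the higher, with Htt at 1.24 ± 0.382 FPKM (SD, n = 4) and Sorcs2 at 2.83 ± 0.335 FPKM.

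The WT hearts of the 2 lines stood apart for Poln. It had 0.269 to 1.19 CPM in the 8 WT hearts of the R6/2 line and 2.43 to 4.02 CPM in the 7 WT hearts of the HdhQ150 line. The HdhQ150 hearts, at 1.16 to 2.57 CPM, reached into both ranges. For Sorcs2, the WT hearts of the HdhQ150 line (5.82 to 10.2 CPM) overlapped those of the R6/2 line (8.81 to 23.6 CPM) at their upper end, and the HdhQ150 hearts (12.0 to 17.9 CPM) were within the latter range. These are levels set side by side, and line and age cannot be told apart in them.

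The stretch of chromosome around Htt was then read gene by gene, in the HdhQ150 line, as a description. Of the 101 genes tested at both ages within 50 genes of Htt on each side (3.57 Mb on one side and 9.23 Mb on the other), 7 had groups that did not overlap at both ages in the same direction (6.93%), 6 lower and 1 higher. The same held for 2.34% of all 14942 genes and for 14 of 684 genes (2.05%) on the rest of chromosome 5, more than 100 genes away. Leaving out the 9 listed genes, 6 of 93 neighbours did so (6.45%), and within 100 genes on each side 13 of 192 did (6.77%). Sex differed between the groups at 22 months, and neighbouring genes are not independent of each other. The 22-month values of the neighbours include the libraries whose headings went against their Y-linked transcripts.

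Besides Sorcs2, 4 genes within 100 genes of Htt were apart at both ages with a fold of at least 1.3 at both. They were among the 192 tested genes of that stretch outside the 9 listed. Of all 14942 genes, 0.448% met these limits in the same direction at both ages. Msantd1, the next gene after Htt, which encodes a protein with a Myb/SANT-like domain, had 1.68, 0.986, 0.933 and 1.29 CPM in WT and 0.637, 0.276 and 0.411 CPM in HdhQ150 hearts at 8 months. At 22 months it had 0.811, 0.748 and 0.980 CPM in WT and 0.251, 0.326, 0.390 and 0.331 CPM in HdhQ150 hearts. The log2 fold changes were -1.43 (SE 0.33) and -1.37 (SE 0.26). Msantd1 shares 4523 bases with the 3′ end of Htt on the same strand.

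The other 3 of these genes were Rbks, Ppp2r2c and Slit2. Rbks, a ribokinase 38 genes from Htt and 2 genes from Supt7l, was lower by 0.56 and 0.53 on the log2 scale. Ppp2r2c, a regulatory subunit of protein phosphatase 2A 22 genes beyond Htt, was lower by 0.78 (SE 0.33) and 1.41 (SE 0.27), at 0.153 to 0.613 CPM in all hearts at 8 months. Slit2, a secreted guidance protein 57 genes beyond Htt, was higher by 0.47 and 0.54. Of the 6 genes next to Htt, Mfsd10, Nop14 and Grk4 overlapped between groups at both ages, Dok7 was apart at 22 months alone (-0.47), and Rgs12, a regulator of G protein signalling, was apart at both ages with log2 fold changes of -0.34 and -0.32, both below the fold limit.

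**Figure D4:**
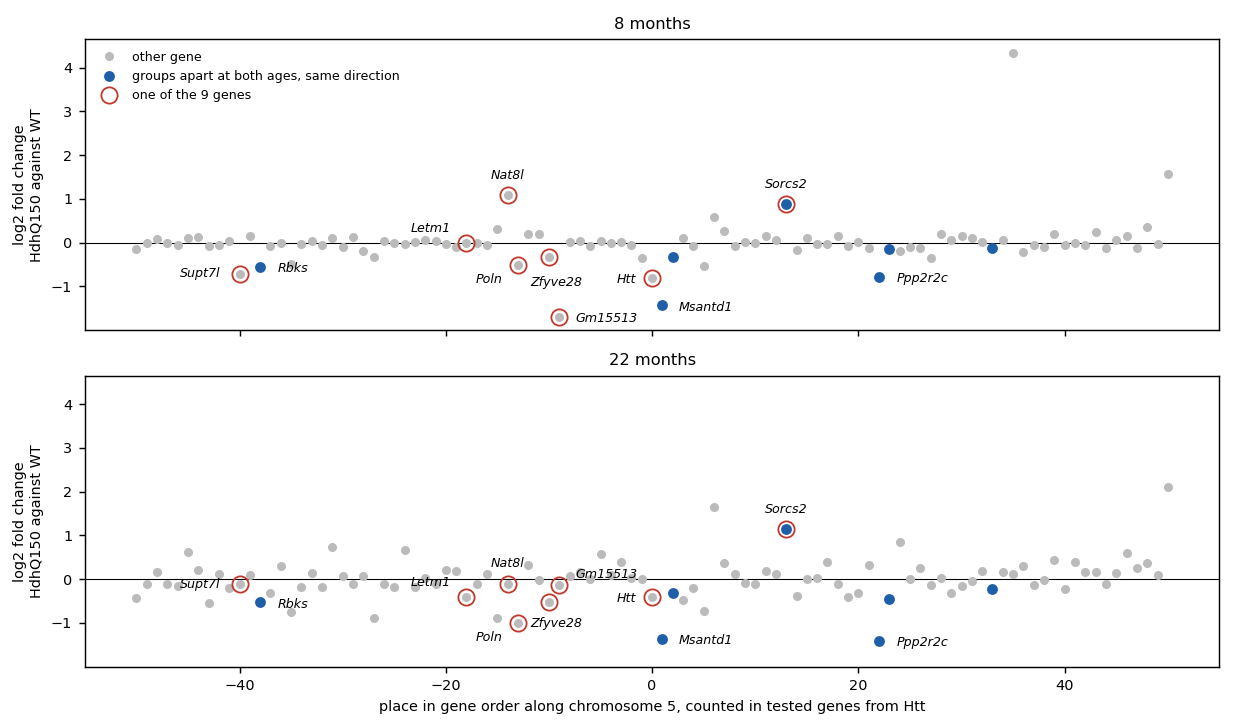
Log2 fold change of HdhQ150 against WT hearts (vertical axis) at 8 months (top) and 22 months (bottom) for the 101 tested genes within 50 genes of Htt, in chromosome order from Htt (horizontal axis, in genes). Blue points are the 7 genes whose groups did not overlap at both ages in the same direction, and red circles mark the listed genes within this stretch. Sorcs2 is the 1 blue point above 0, and the high point at 8 months is Otop1 (4.34), which stood at 0.11 at 22 months.

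In the R6/2 line, which the choice of these neighbours did not use, 2 of the 9 named neighbours passed the test at 15 weeks, where 14.3% of all genes did. Msantd1 was lower in R6/2 hearts at 15 weeks, with 0.977, 0.899, 1.13 and 0.722 CPM in WT and 0.305, 0.313, 0.419 and 0.509 CPM in R6/2 hearts (log2 fold change -1.26, SE 0.26, adjusted p = 0.0335, edgeR). At 4 weeks the difference had the other sign (0.64, SE 0.29, adjusted p = 1.0), with 0.471, 0.473, 0.523 and 0.620 CPM in WT and 0.768, 0.598, 0.686 and 1.22 CPM in R6/2 hearts. The change of the R6/2 difference between the ages passed the test (-1.91, SE 0.38, adjusted p = 0.0660). Slit2 was higher in R6/2 hearts at 15 weeks, with 2.93, 3.24, 3.17 and 3.04 CPM in WT and 9.33, 8.75, 4.37 and 6.75 CPM in R6/2 hearts (1.24, SE 0.23, adjusted p = 0.0255). Without the WT libraries with thymocyte transcripts, Msantd1 was at -1.24 and missed the test (adjusted p = 0.115), and Slit2 was called at 1.24 (adjusted p = 0.0928). Without mice 1, 2, 5 and 6 neither was called (-0.97 and 0.86, adjusted p = 0.284 and 0.201), nor was either without the R6/2 libraries with airway transcripts, where edgeR called 0 of 16761 genes. Rbks and Ppp2r2c were not called in R6/2 hearts at either age.

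Genes that work with the 9 were read from 7 lists of 89 to 92 tested genes in all. At 15 weeks in R6/2 hearts, 10 of 89 were called (4 higher, 6 lower), against 14.3% of all genes. All 10 are named, which was decided after their values were seen. Without the WT libraries with thymocyte transcripts (761 and 636 CPM), 5 of 91 were called (2 higher, 3 lower), against 6.69% of all genes, and Hap1, Polq, Erbb2 and Hbegf were among them while Rev3l, Polh, Aspa, Acly, Slc8b1 and Sf3b3 were not. Without mice 1, 2, 5 and 6, none of 90 was called, against 0.212% of all genes. Hap1, which binds huntingtin, was higher by 1.07 (SE 0.19, adjusted p = 0.0228, edgeR). It was the 1 gene called of the 17 partners of huntingtin. Of the 12 genes of the polymerase list, 3 were called and all 3 were lower. Polq, like Poln a polymerase of family A, was at -1.59 (SE 0.24, adjusted p = 0.0141, edgeR), and Rev3l and Polh were at -0.63 and -0.72. No member of the VPS10 receptor and neurotrophin list was called among 10 tested. Slc8b1 of the mitochondrial ion exchange list was higher by 0.57 and Sf3b3 of the SAGA list lower by 0.58. Of the N-acetylaspartate list, Aspa, which breaks N-acetylaspartate down, was higher by 0.63 and Acly lower by 1.22, and of the FYVE and EGFR list Erbb2 was higher by 0.71 and Hbegf lower by 0.44.

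At 4 weeks in R6/2 hearts edgeR and DESeq2 called 0 of 90 list genes, and 1 had an unadjusted p under 0.05. In the HdhQ150 comparisons edgeR called 0 of 90 at 8 months and 0 of 91 at 22 months, with 8 and 13 at an unadjusted p under 0.05 and 1 and 2 called by DESeq2. Over all genes edgeR likewise called 0% at both HdhQ150 ages, with 1124 and 2591 genes at an unadjusted p under 0.05 and 61 and 599 called by DESeq2.

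In WT hearts from 8 to 22 months, 29 of 90 were called (7 higher, 22 lower), where 8.61% of all genes were called higher and 14.8% lower. Of the huntingtin partners 7 of 17 were called, all lower like Htt, among them Sp1 (-0.60), Kif5b, a motor of transport along microtubules (-0.61), and Crebbp, a histone acetyltransferase (-1.13). Of the VPS10 receptor and neurotrophin list 4 of 10 were called, 2 higher and 2 lower. The lower ones were Sort1, a relative of Sorcs2 (-0.62), and Sorcs1 (-1.33, at a mean of 0.0538 FPKM). Of SAGA 4 of 21 were called, with Atxn7 (-0.74), Trrap (-0.43) and Kat2b (-0.43) lower and Sgf29 (0.52) higher. Of the polymerase list 7 of 12 were called, 5 lower and 2 higher, with Rev3l (-0.68), Rev1 (-0.48) and Polk (-0.59) among the lower. The FYVE and EGFR list had 4 of 12 lower, with Eea1 (-0.82), Zfyve16 (-0.77) and Nedd4 (-0.44) leading, Letmd1 was higher by 0.40, and of the N-acetylaspartate list Aspa was higher by 0.56 and Rimkla lower by 0.57. Without mice 27 and 28, mouse 26 was the only WT heart left at 22 months, and Letmd1 stood at 0.24, below the fold limit. From 4 to 15 weeks 13 of 90 were called (3 higher, 10 lower), where 7.01% of all genes were. Without mice 1 and 2 none of 91 was called, against 0.665% of all genes. Without all libraries with thymocyte transcripts none of 91 was called, against 0 of all 15241 genes.

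Across the 30 libraries and 17079 genes, the log2 CPM values most like those of Htt were of Pus7 (Pearson's r 0.82), Fem1b (0.79) and Rnf168 (0.79), and those most like Sorcs2 were of Stk3 (0.77), Golph3l (0.72) and Epyc (0.70). These coefficients describe libraries that share group, age and composition, and they carry no test.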

How the data were processed

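RNA of whole hearts was sequenced by Illumina (paired reads, 4 libraries a lane), and the authors aligned it with Omicsoft OSA to mouse build B37. The deposited table holds expected counts per gene, not all whole (70.9% of values above 0 were, within 1e-09), rounded here before fitting. A second deposited table holds FPKM made by the authors from the same alignment. Columns gave group and mouse number and were matched to groups, not to single samples, and ids were matched to symbols (32897 of 37620). Headings number each mouse, and replicates were taken as separate mice. Counts of any 2 libraries of a group differed by a chi-square of at least 5.73 per degree of freedom, above sampling noise.

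The design had assumed whole counts. Each comparison was fitted on its own libraries with edgeR 4.0.16 (TMM factors, filterByExpr, quasi-likelihood test, Benjamini-Hochberg adjustment over all genes tested), in R 4.3.3. A gene was called at an adjusted p under 0.1 and a fold of at least 1.3. The genotype by age term of the R6/2 line was fitted over its 4 groups. CPM used TMM factors over all 30 libraries, log2 CPM a prior count of 2, and 95% intervals are the fitted value ± normal quantiles of its SE. The SE was derived from the log2 fold change and the F value of the test. With so few hearts these intervals are narrower than the test implies. Gm15513 in R6/2 at 4 weeks had an interval of -1.77 to -0.01 at an unadjusted p of 0.0789 (edgeR). The fits were tested on simulated data, with 100 genes changed 1.5-fold and 100 changed 2-fold. Of these, 5 and 39 were called in R6/2 at 4 weeks and 4 and 42 in R6/2 at 15 weeks. In WT at 22 against 8 months 59 and 75 were. Most simulated 1.5-fold changes were thus missed in the R6/2 comparisons. DESeq2 1.42.0, limma 3.58.1 on log2(FPKM + 1) and log2(FPKM + 0.1), other scaling and filters, and leaving out libraries were the alternatives. The lists and the 9 genes were chosen with earlier results of these data known. Named genes are the 9, the 3 tested genes on each side of Htt, those within 100 genes apart at both ages with a fold of 1.3, genes that overlap the 9, up to 3 called genes a list by adjusted p, and the 3 genes most like Htt and Sorcs2. Gene order came from GENCODE vM21 (GRCm38), and no coordinate was taken from B37. The metadata table was not used.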

Additional observations from a re-analysis of the deposited data

Results flagged for a closer look

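Of 54 sets of 4 hearts (a gene in a group), 1 held a value farther from the others than Dixon's 95% limit. Sorcs2 stood at 18.1 CPM in the WT heart of mouse 3 at 15 weeks, where the other 3 WT hearts had 8.81 to 10.3 CPM, and the gap took 0.835 of the range against a limit of 0.829. Chance flags about 1 in 20 groups. Without this heart, the log2 fold change of Sorcs2 in R6/2 against WT hearts at 15 weeks was 0.34 in place of 0.07, and that of WT hearts at 15 against 4 weeks was -0.85 in place of -0.57 and was called (adjusted p = 0.0817, edgeR).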

How the results depend on the processing

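No paired analysis was possible because the columns carry mouse numbers that no sample label repeats. With all 30 libraries in 1 fit, 2 of the 9 genes were called in R6/2 at 15 weeks, 2 in WT at 15 against 4 weeks, 1 in WT at 22 against 8 months and 1 in the genotype by age term. Of all 17080 genes, that fit called 3588, 3060, 2328 and 736. With the lane as a term as well (chosen after seeing the data), R6/2 at 15 weeks and WT at 22 against 8 months had 0, where 1020 and 1639 of all genes were called. Limma gave 0, 0 and 1 in R6/2 at 15 weeks, WT at 15 against 4 weeks and WT at 22 against 8 months with either pseudocount. Over all genes it called 987, 841 and 1911 with a pseudocount of 1, and 1189, 958 and 3328 with 0.1. In the HdhQ150 line, 3 genes at 8 months and 1 at 22 months were apart by FPKM and at least 1.3-fold (pseudocount 1). With a pseudocount of 0.1 there were 2 at 22 months. Gm15513 at 8 months and Poln at 22 months did not overlap by FPKM either. With a pseudocount of 1 they missed that fold (log2 fold changes -0.31 and -0.33). DESeq2 called 2 in WT at 15 against 4 weeks, where no filter, the Y-linked covariate and leaving out thymocyte-carrying libraries each gave 0. Over all genes these fits called 2032, 719, 403 and 0. R6/2 at 15 weeks had 0 without the libraries with thymocyte transcripts, where 1073 of all 16027 genes were called. Leaving out the R6/2 libraries with airway transcripts left 1 R6/2 library, assumed to vary like the rest, and its count is not read. Without a fold limit 2 were called in R6/2 at 15 weeks and 4 in WT at 22 against 8 months, and at an adjusted p under 0.05 there were 0 in R6/2 at 15 weeks and 0 in WT at 15 against 4 weeks. Leaving out 1 library at a time gave 0 to 2 in R6/2 at 15 weeks and 0 to 1 in WT at 15 against 4 weeks. Over all genes these fits called 659 to 3376 and 295 to 1116. In the HdhQ150 line it gave 5 to 6 apart at 8 months and 3 to 6 at 22 months. Fits without the libraries whose headings went against their Y-linked transcripts were chosen after seeing the data. They called 0 in R6/2 at 15 weeks (33 of all 15541 genes) and 0 in WT at 15 against 4 weeks (106 of 15930). In WT at 22 against 8 months such a fit left 1 heart at 22 months, and its count is not read. In these fits signs changed for Sorcs2 (-0.463), Supt7l (-0.060), Gm15513 (0.694) and Zfyve28 (0.855) in R6/2 at 15 weeks, Zfyve28 (-0.399) in WT at 15 against 4 weeks, Letm1 (0.015) in WT at 22 against 8 months, and Sorcs2 (-0.376), Supt7l (-0.023) and Zfyve28 (1.045) in the genotype by age term. The genes around Htt apart at both ages, Sorcs2 included, numbered 14 within 100 genes. Within 50 genes they numbered 4 with a fold of 1.3 and 7 to 12 with 1 library left out.

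Genes that missed the test changed sign in 64 fits. At 4 weeks in R6/2, leaving out 1 library gave -0.180 to 0.034 for Htt, -0.335 to 0.213 for Sorcs2, -0.129 to 0.031 for Supt7l, -0.201 to 0.074 for Atraid and -0.083 to 0.151 for Letm1, which was -0.0061 with the lane. At 15 weeks it gave -0.051 to 0.345 for Sorcs2, -0.038 to 0.097 for Supt7l, -0.075 to 0.065 for Letm1 and -0.558 to 0.063 for Zfyve28. Without libraries with thymocyte transcripts these stood at -0.185 (Sorcs2), -0.064 (Supt7l), 0.151 (Gm15513) and 0.515 (Zfyve28), Supt7l at -0.044 with the lane, and Letm1 at 0.0048 with no filter, 0.038 with the lane and 0.039 without airway libraries. In WT at 15 against 4 weeks Zfyve28 was -0.164 without thymocyte libraries. In WT at 22 against 8 months Poln ran from -0.211 to 0.028 (0.075 with the lane), Letm1 from -0.038 to 0.013 (0.0077 in 1 fit, 0.087 with the lane), and Zfyve28 was 0.141 and 0.317 by limma. In the genotype by age term Sorcs2 ran from -0.152 to 0.468 (-0.015 without thymocyte libraries), Supt7l from -0.017 to 0.168, Gm15513 from -0.066 to 0.633 (-0.043 by limma), Letm1 from -0.169 to 0.070 (0.044 with the lane) and Zfyve28 from -0.343 to 0.267 (0.039 by limma, 0.492 without thymocyte libraries). The cause was not tested. In the R6/2 line Gm15513, Poln and Zfyve28 had 6 to 128 reads a heart, which limits what can be seen of them.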
